A study of Mus musculus with 16 samples.

Results

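Odc1, Adh1 and Cyp4b1 are 3 genes of the proximal tubule that androgen raises in mouse kidney, and their transcripts were followed here in kidneys of male Pept2 knockout mice. The genes were chosen by name, as known androgen-responsive genes whose ratio of knockout to wild-type RNA had already been looked at on all 16 arrays, so those ratios are given as a description and without a test. Each gene had 1 probe annotated to it alone, which makes 3 of 20205 probes on the array and 3 of 6191 genes that could be tested. The knockout animals were 4 Pept2-/- males, mice 1 to 4, which lack the proton-coupled peptide transporter PEPT2 encoded by Slc15a2. They were set against Pept2+/+ animals, represented by 1 pool of RNA from 5 right kidneys. Kidneys of both genotypes were those of males aged 88 (±2) days from 1 Pept2+/- line, bred on a background that mixes C57BL/6 with 129Sv. The right kidney of each knockout mouse was hybridised against the pool on 4 two-colour spotted cDNA arrays, 2 with the knockout RNA in channel 1 and 2 with it in channel 2. No wild-type kidney was hybridised singly. The spread between wild-type animals is therefore not measured here, and all 4 knockout mice share any error in the pool. No hormone level was used here.

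Androgen acts in mouse kidney mainly on the proximal tubule, where testosterone from the testis keeps a set of transcripts higher in males than in females. Odc1 encodes ornithine decarboxylase, the first and rate-limiting enzyme of polyamine synthesis, and is among the classical androgen-induced genes of this organ. Adh1 encodes the class I alcohol dehydrogenase, which oxidises ethanol and retinol. Cyp4b1 encodes a cytochrome P450 that oxidises fatty acids and some foreign compounds and that is more abundant in kidneys of male than of female mice. Steroid response elements of DNA are commonly inverted repeats of the hexamer AGAACA.

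The stretches of 250 bases upstream of the annotated starts are shown because all 3 genes lay on the same side of the wild-type pool. They come from RefSeq on the build GRCm38.p6, at chr12:17544623-17544872 on the plus strand for Odc1, chr3:138277335-138277584 on the plus strand for Adh1 and chr4:115647722-115647971 on the minus strand for Cyp4b1. Each is written 5′ to 3′ on the strand of its gene, and capitals mark AGAACA or its reverse complement TGTTCT.
Odc1: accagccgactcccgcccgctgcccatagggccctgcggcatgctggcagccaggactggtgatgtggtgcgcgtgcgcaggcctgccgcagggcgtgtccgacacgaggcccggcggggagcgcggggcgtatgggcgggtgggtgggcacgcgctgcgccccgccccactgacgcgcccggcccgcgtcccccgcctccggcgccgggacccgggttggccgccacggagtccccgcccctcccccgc
Adh1: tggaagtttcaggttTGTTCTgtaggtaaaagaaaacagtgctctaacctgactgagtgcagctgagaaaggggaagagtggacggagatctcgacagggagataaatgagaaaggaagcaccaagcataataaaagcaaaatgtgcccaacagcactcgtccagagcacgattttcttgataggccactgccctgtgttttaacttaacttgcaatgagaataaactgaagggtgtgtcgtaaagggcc
Cyp4b1: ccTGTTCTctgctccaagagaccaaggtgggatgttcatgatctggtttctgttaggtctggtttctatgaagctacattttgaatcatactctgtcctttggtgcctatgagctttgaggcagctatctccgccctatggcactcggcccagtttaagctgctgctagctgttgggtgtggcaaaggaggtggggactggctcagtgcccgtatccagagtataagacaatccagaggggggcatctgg
The hexamer occurred 1 time in the Adh1 window, starting 235 bases upstream, and 1 time in the Cyp4b1 window, starting 248 bases upstream, both as TGTTCT. It was not found in the Odc1 window. Of 27025 upstream windows of the same length, 1 per gene, 16.2% held it on either strand. The full repeat, AGAACA and its reverse complement spaced by 3 bases, was in none of the 3 windows and in 1 of the 27025. The Odc1 window was 80.0% G and C, against 44.8% for Adh1, 51.6% for Cyp4b1 and a median of 52.0% over all windows. A match of 6 letters is a description of the sequence and not a binding site. Among the 8 other genes listed as raised by androgen, 7 had an upstream window in the table and none of those windows held the hexamer.

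The values are log2 ratios of knockout RNA over the wild-type pool, with each array centred on its median, so that 0 means an equal share in both RNAs. The deposited table does not say which channel is the numerator. Channel 1 over channel 2 is the likely reading, because the targeted gene Slc15a2 is then lower in knockout kidney on all 16 arrays, at a mean of -2.51 (SE 0.16, n = 4 mice) with -2.17, -2.74, -2.81 and -2.33 in mice 1 to 4. Under the opposite reading every ratio below changes sign. Between 10134 and 18400 probes had a value on an array, and the median gene had a standard error of 0.05 over 4 mice. The most alike arrays, with an r of 0.62 across probes, were array 3 of mouse 3 and array 1 of mouse 4, from different mice, against a highest r of 0.53 within a mouse. Without these arrays Odc1 stood at -0.52, Adh1 at -0.26 and Cyp4b1 at -0.12. In whole kidney RNA, fewer proximal tubule cells and less transcript per cell cannot be told apart.

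Odc1 lay furthest below the pool. Its log2 ratio was -0.77, -0.58, -0.56 and -0.28 in knockout mice 1, 2, 3 and 4. On single arrays it ran from -0.94 to -0.07 with a median of -0.56, and all 14 arrays with a value were below 0. None of these 14 arrays reached the level of the pool, and mouse 4 was the closest to it. The mean of the 4 mice was -0.55 (SD 0.20, SE 0.10), or 1.46-fold lower in knockout kidney. Of the 6191 genes, 4 had a lower mean, Slc15a2 among them. Odc1 was the 1 gene of the 3 past the adjusted threshold of 0.05 in limma over all genes, where 9 genes (0.145%) were called lower. Because that contrast was used to choose it, nothing is read from the call. The blanks were array 2 of mouse 1 and array 1 of mouse 2, so each of these mice had 1 array in place of 2 in that orientation.

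A further probe, outside the rule, was annotated to Odc1 and Gm7993 together and so measures neither alone. It had a value on all 16 arrays and was below 0 on 14 of them. The 2 above 0 were array 1 of mouse 2 at 0.14, on which the probe of Odc1 alone had no value, and array 4 of mouse 4 at 0.04. By mouse it stood at -0.63, -0.37, -0.62 and -0.19, with a mean of -0.46 (SE 0.11). As for the probe of Odc1 alone, mouse 4 was nearest to the pool. The r between both probes was 0.65 across the 14 shared arrays, given as a description because the arrays share the hybridisations.

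Adh1 was also below the pool in each mouse, by about as much in 3 of the 4. Its log2 ratio was -0.32, -0.33, -0.13 and -0.32 in mice 1 to 4, with a mean of -0.27 (SD 0.10, SE 0.05), or 1.21-fold lower. On single arrays it ran from -0.54 to 0.03 with a median of -0.28. The 2 arrays of 16 above 0 were both of mouse 3 with the knockout RNA in channel 1, at 0.03 and 0.02, while the arrays of that mouse in the other orientation stood at -0.22 and -0.34. Of the 6191 genes, 74 (1.2%) had a lower mean.

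Cyp4b1 was the closest of the 3 to the pool. Its log2 ratio was -0.18, -0.18, -0.07 and -0.17 in mice 1 to 4, with a mean of -0.15 (SD 0.05, SE 0.03), or 1.11-fold lower. On single arrays it ran from -0.38 to 0.17 with a median of -0.20, and 11 of 16 arrays were below 0, so the arrays lay on both sides of the pool. Of the 6191 genes, 492 (7.95%) had a lower mean. The SD of 0.05 between mice was small beside the 0.20 left between arrays after a fit of mouse and orientation. Each mouse mean averages 4 arrays. All 3 genes were below the pool in all 4 mice, as were 885 of 6191 genes (14.3%), and since these ratios chose the genes nothing is read from that count.

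**Figure D1:**
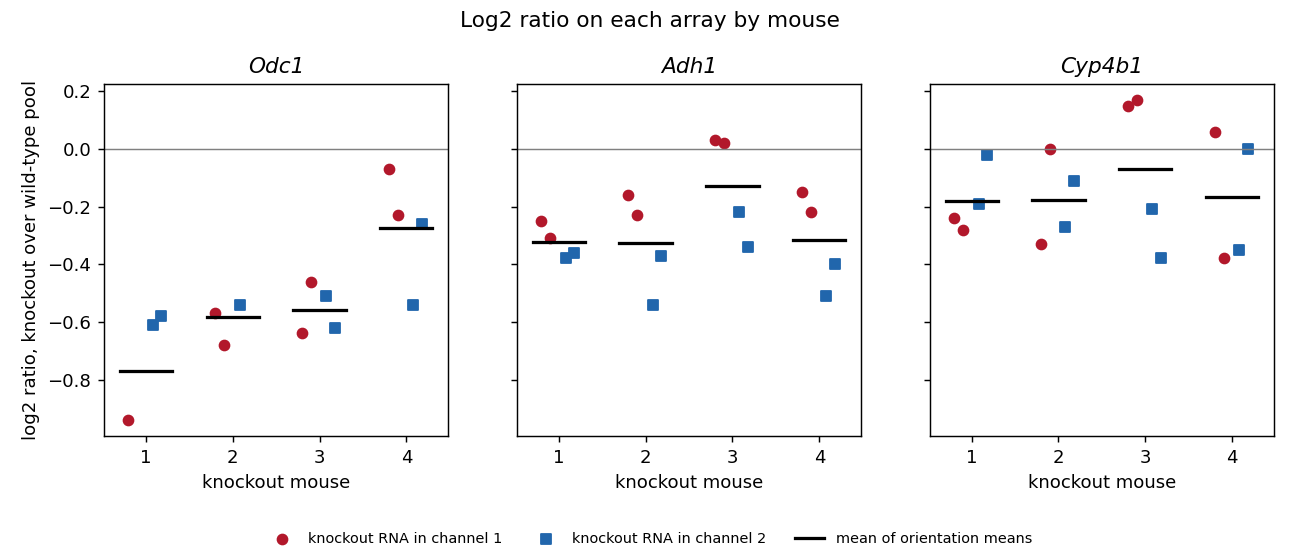
Log2 ratio of knockout RNA over the wild-type pool (y axis) for Odc1, Adh1 and Cyp4b1 on each array, by knockout mouse (x axis). Circles are arrays with the knockout RNA in channel 1, squares those with it in channel 2, and bars the mean of both orientation means. Odc1 lies below 0 on all 14 arrays, from -0.94 to -0.07, while Adh1 passes above 0 in mouse 3 and Cyp4b1 reaches 0 or above in mice 2, 3 and 4.

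Whether the 4 knockout mice differed from each other was a separate question, in which the shared pool cancels and on which the genes had not been chosen. A moderated F test in limma on the array values, with a term for orientation, asked this of all 6191 genes, and 157 (2.54%) passed an adjusted p of 0.05. None of the 3 genes did. The test takes arrays as technical replicates, so it compares these animals only.

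For Odc1 the adjusted p of the F test was 0.224, with the mice in the order 1, 2, 3 and 4 from lowest to highest. The widest gap, mouse 1 minus mouse 4, was -0.44 (SE 0.12), at an adjusted p of 0.139 over all genes and the 6 pairs of mice in limma. Mouse 2 minus mouse 4 was -0.32 (SE 0.12, adjusted p = 0.343 in limma), and mouse 3 minus mouse 4 was -0.28 (SE 0.11, adjusted p = 0.372 in limma). Neighbours in that order were closer than this for mice 1 and 2 (-0.12, SE 0.13) and for mice 2 and 3 (-0.04, SE 0.12). These gaps come from the fit to array values with its orientation term. Because of the blanks of Odc1 they are not the same as gaps between the mouse values given above. Of all genes, 525 had a wider SD between mice than Odc1.

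For Adh1 the order was mouse 2, 1, 4 and 3, and the first 3 of these lay within 0.01 of each other. Mouse 3 stood apart: mouse 1 minus mouse 3 was -0.19 and mouse 2 minus mouse 3 was -0.20 (SE 0.08 each), with adjusted p-values of 0.404 and 0.4 in limma, and the F test gave an adjusted p of 0.447. For Cyp4b1 mouse 3 was again the highest, with mouse 1 minus mouse 3 at -0.11 (SE 0.14, adjusted p = 0.846 in limma), and the F test gave an adjusted p of 0.934. No pair of mice passed for any of the 3 genes, where 2.7% of all genes had at least 1 pair past the threshold. After each orientation was centred, r over the arrays was 0.57 between Adh1 and Cyp4b1 (16 arrays), 0.16 between Odc1 and Adh1 and 0.20 between Odc1 and Cyp4b1 (14 arrays each). These arrays share mice and the pool, so the values are a description.

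Svs5, which encodes an androgen-dependent protein of seminal fluid, differed widely between the same mice, at 0.21, -0.09, 4.94 and 1.09 in mice 1 to 4 (adjusted p = 2.2e-05 in the limma F test). Mouse 3, with the highest Svs5, also had the highest Adh1 and Cyp4b1, though the F test between mice passed for neither gene. Mouse 4, with the next highest Svs5, stood at -0.32 for Adh1 and -0.17 for Cyp4b1, near mice 1 and 2. Without mouse 3, Adh1 stood at -0.32, Cyp4b1 at -0.17 and Odc1 at -0.54. Seminal vesicle and prostate were represented by 2 measured markers of 16 listed, and the other measured marker, the trypsin inhibitor Spink1, stood at -0.43, -0.16, -0.05 and -0.17. The part of such tissue in the ratios of the 3 genes was not tested.

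**Figure D2:**
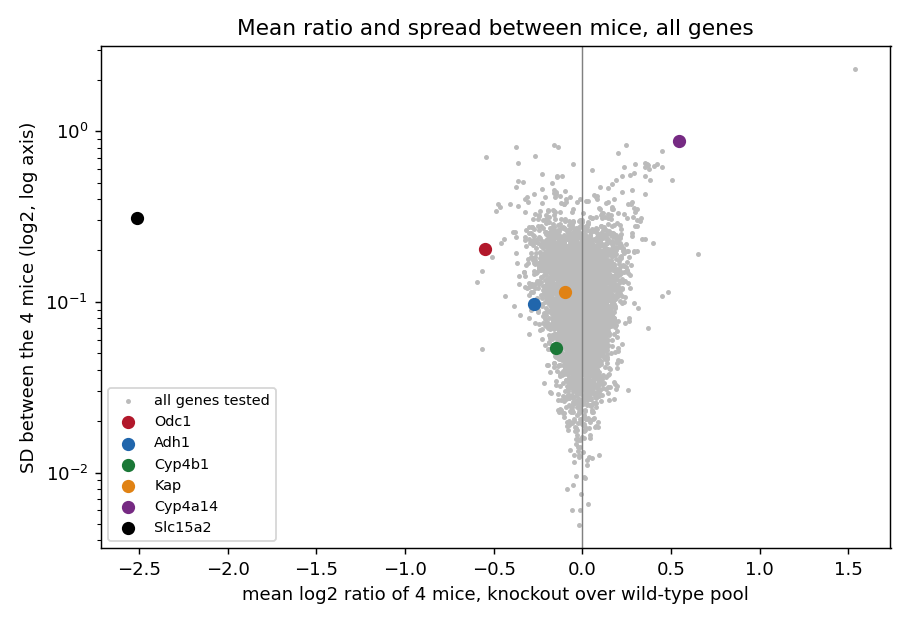
Mean log2 ratio of the 4 knockout mice over the wild-type pool (x axis) against the SD between mice (y axis, log scale), 1 point per gene for 6191 genes. Odc1 stands at -0.55 with an SD of 0.20, Adh1 at -0.27 with 0.10 and Cyp4b1 at -0.15 with 0.05, and Kap, Cyp4a14 and Slc15a2 are marked for comparison.

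Of the 3 genes, Adh1 had the widest gap between the orientations of the knockout RNA. With the knockout RNA in channel 1 Adh1 averaged -0.16, and with it in channel 2 -0.39, a difference of 0.23 (SE 0.05, n = 4 mice). The difference had the same sign in each mouse, at 0.08, 0.26, 0.31 and 0.27 in mice 1 to 4. It did not pass in limma over all genes (adjusted p = 0.187), where no gene of 6191 (0%) passed and 1208 were at an unadjusted p under 0.05. That is a larger share than the 0.05 that chance gives on average, so the lack of calls does not mean that the orientations were alike. The mean of 4 mice was below 0 in either orientation.

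Cyp4b1 averaged -0.10 with the knockout RNA in channel 1 and -0.19 with it in channel 2, a difference of 0.09 (SE 0.13, adjusted p = 0.668 in limma). Mouse 3 alone made most of it, with an orientation difference of 0.46 against -0.16, 0.03 and 0.01 in mice 1, 2 and 4. Odc1 averaged -0.57 in channel 1 and -0.53 in channel 2, a difference of -0.04 (SE 0.12, adjusted p = 0.848 in limma), with -0.35, -0.08, 0.01 and 0.25 by mouse. The orientation means of Odc1 were thus close, with single mice apart in opposite directions. The labels do not say which dye was in which channel.

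The other genes listed as higher in male or androgen-treated mouse kidney had means on the same side of the pool, some of them near 0. Of these 8 genes, 4 were below the pool in all 4 mice, beside 14.3% of all genes. Of 19 listed genes 11 were measured, the 3 genes included, and all 11 had a mean below 0 (10 of 11 on the values as deposited, not centred), with a median of -0.15, against 51.8% of all genes below 0 and a median of -0.004. Past the adjusted threshold over all genes, 2 of the 11 were lower (Odc1 and Hsd11b1) and none was higher, beside 0.145% of all genes called lower and 0.0646% called higher. Without the 3 genes, 8 of 8 were below 0 with a median of -0.12, and 1 was called. The 3 genes and the list were chosen with earlier results of these data known, so nothing is read from these calls or from the counts below 0. With the knockout RNA in channel 1 only, 7 of the 11 were below 0, against 10 of 11 with it in channel 2 only.

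Hsd11b1, the reductase that regenerates active glucocorticoid, had the lowest mean of the list. It stood at -0.59, -0.76, -0.41 and -0.49 in mice 1 to 4 with a mean of -0.56 (SE 0.08, adjusted p = 0.0149 in limma), each mouse well below the pool. Cyp7b1, a steroid and oxysterol hydroxylase, stood at -0.25, -0.19, -0.41 and -0.44, with a mean of -0.32 (SE 0.06). Nudt19, the peroxisomal hydrolase also known as the androgen-regulated kidney transcript RP2, stood at -0.13, -0.17, -0.46 and -0.21, with a mean of -0.24 (SE 0.08). Neither Cyp7b1 nor Nudt19 passed (adjusted p = 0.0983 and 0.161 in limma), though all mice were below the pool for both. Mouse 3 was the highest for Hsd11b1, as for Adh1 and Cyp4b1, but the lowest for Nudt19 and among the lower pair for Cyp7b1.

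Kap, the kidney androgen-regulated protein, is an abundant androgen-dependent transcript of the mouse proximal tubule. It stood at -0.04, 0.04, -0.20 and -0.18 in mice 1 to 4, with a mean of -0.10 (SE 0.06, adjusted p = 0.39 in limma), so that the mice lay on both sides of the pool. Its orientation means lay on opposite sides of 0, at -0.36 with the knockout RNA in channel 1 and 0.17 with it in channel 2, and that difference of -0.53 (SE 0.17) did not pass over all genes (adjusted p = 0.159 in limma). The organic cation transporter Slc22a2 stood at -0.14 (SE 0.02), with all 4 mice below 0, but at 0.01 with the knockout RNA in channel 1 and -0.28 with it in channel 2. The organic anion transporter Slc22a6 averaged -0.02, the urate transporter Slc22a12 -0.01 and the acyl-CoA synthetase Acsm2 -0.04, each with mice on both sides of 0. These 3 genes too were above 0 with the knockout RNA in channel 1 and below 0 with it in channel 2.

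Of 4 genes listed as higher in female mouse kidney, 1 was measured. Cyp4a14, a fatty acid hydroxylase of the same family as Cyp4b1, stood at 1.56, 0.95, -0.34 and 0.01 in mice 1 to 4, with a mean of 0.55 (SE 0.44, adjusted p = 0.333 in limma). Mice 1 and 2 were far above mice 3 and 4, and the F test between mice passed (adjusted p = 9.72e-06 in limma).

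**Figure D3:**
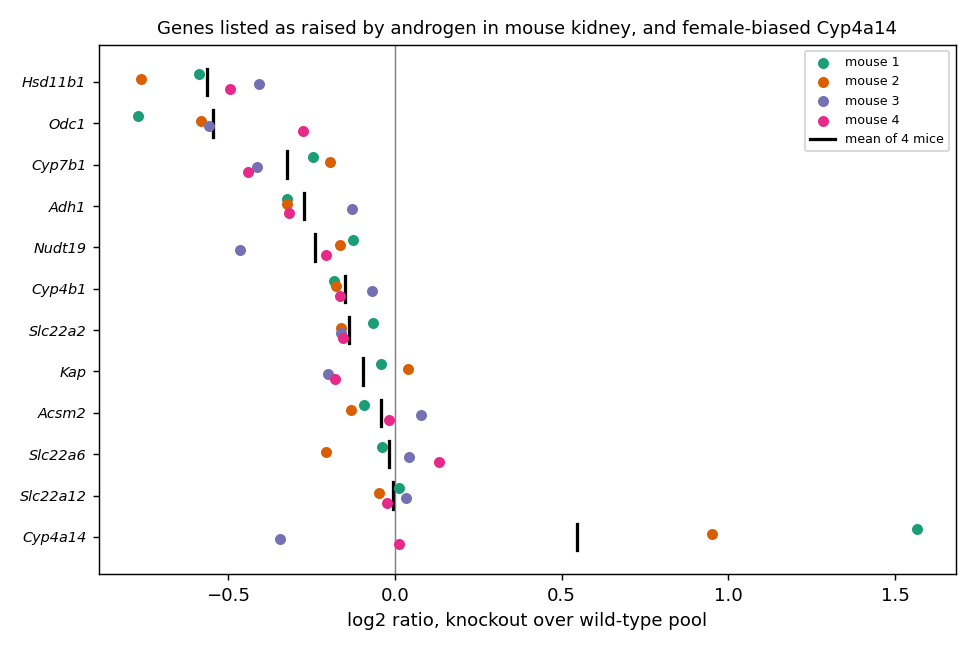
Log2 ratio of knockout RNA over the wild-type pool (x axis) for the 11 measured genes listed as raised by androgen in mouse kidney and for Cyp4a14, listed as higher in females (rows). Points are the 4 knockout mice and bars their mean; the means of the 11 genes run from -0.56 to -0.01, and Cyp4a14 is at 0.55.

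**Figure D4:**
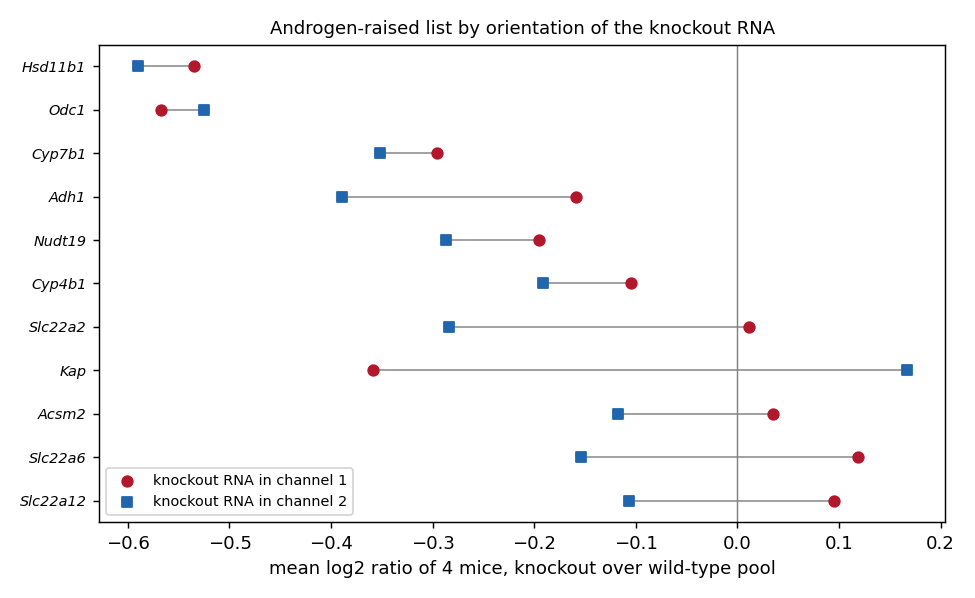
Mean log2 ratio over 4 mice (x axis) of the 11 genes listed as raised by androgen (rows), with the knockout RNA in channel 1 (circles) and in channel 2 (squares). Adh1 is at -0.16 and -0.39, Odc1 at -0.57 and -0.53, and Kap lies at -0.36 and 0.17, on opposite sides of 0.

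Odc1 lay further from the pool than the other measured genes of polyamine metabolism. Of 27 listed genes 14 were measured, 8 of them below 0, with a median of -0.02, beside 51.8% of all genes below 0. Odc1 was the 1 called lower and none was called higher, beside 0.145% and 0.0646% of all genes. Because Odc1 was chosen with this contrast known, nothing is read from its call or its distance from the others. Antizymes bind ornithine decarboxylase and send it to the proteasome, and Oaz1 stood at -0.05 (SE 0.03) and Oaz2 at 0.05 (SE 0.05). Of other genes of polyamine synthesis, the decarboxylase gene Amd2 stood at 0.07 (SE 0.02) and the spermidine synthase Srm at -0.01 (SE 0.02), both close to the pool in each mouse.

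Breakdown and use of polyamines showed mixed ratios. The acetyltransferase Sat1, which starts polyamine catabolism and is itself induced by polyamines, stood at -0.09, 0.10, -0.33 and -0.32 in mice 1 to 4, with a mean of -0.16 (SE 0.10, adjusted p = 0.315 in limma). Its mice differed past the threshold (adjusted p = 0.0215 in the limma F test), with mouse 2 above the pool and mice 3 and 4 lowest. Sat2 had the highest mean of the list at 0.21 (SE 0.08, adjusted p = 0.179 in limma). The hypusine pathway, which turns spermidine into a residue of the translation factor Eif5a, stood at -0.04 for Dhps, -0.03 for Dohh and 0.06 for Eif5a. Slc3a2 averaged 0.12 (SE 0.03) and Mat2b -0.10 (SE 0.07), and the ornithine aminotransferase Oat, which competes with Odc1 for ornithine, -0.05 (SE 0.06). Ahcy, which clears S-adenosylhomocysteine, averaged 0.005.

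**Figure D5:**
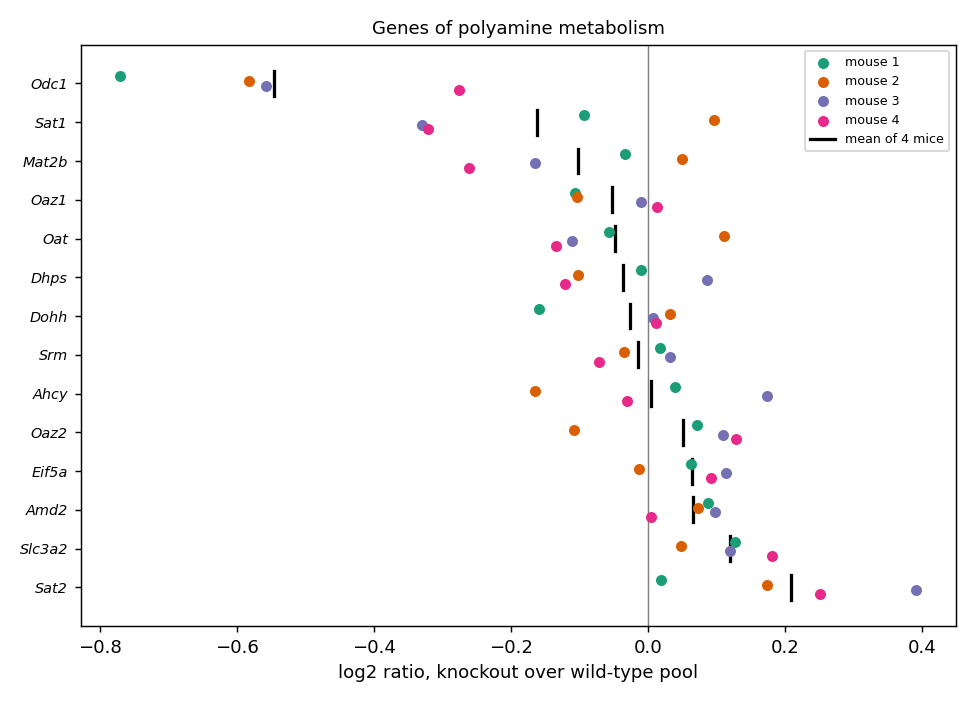
Log2 ratio of knockout RNA over the wild-type pool (x axis) for the 14 measured genes of polyamine metabolism (rows). Points are the 4 knockout mice and bars their mean; Odc1 is at -0.55 and the other means lie between -0.16 (Sat1) and 0.21 (Sat2).

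Among alcohol and aldehyde dehydrogenases, 9 of 22 listed genes were measured, 5 of them below 0 with a median of -0.05. None was called in either direction against the pool. Over all genes 51.8% were below 0 and 0.21% were called. Adh1 had the lowest mean. Adh5, the class III enzyme that oxidises glutathione-bound formaldehyde, stood at -0.17, -0.06, -0.20 and -0.24 in mice 1 to 4, with a mean of -0.16 (SE 0.04, adjusted p = 0.177 in limma). Both alcohol dehydrogenases were thus below the pool in all 4 mice, as were 14.3% of all genes. Whether the probe of either gene also takes up the transcript of the other was not tested. Aldh1a7 and its close relative Aldh1a1, a retinal dehydrogenase, averaged -0.16 (SE 0.42) and -0.05 (SE 0.32). They were the 2 members whose mice differed (adjusted p = 7.51e-06 and 0.00383 in the limma F test). Over all genes 157 of 6191 (2.54%) differed between mice. Mouse 2 had the highest values, 0.94 for Aldh1a7 and 0.80 for Aldh1a1, whereas for Adh1 it was level with mice 1 and 4. Aldh8a1 averaged -0.08 and Akr1a1 0.03. The acetaldehyde dehydrogenase Aldh2 averaged 0.04, Aldh7a1 0.07 and Aldh3b1 0.11.

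Of the CYP4 family and its electron donors, 6 of 18 listed genes were measured, 3 of them below 0 with a median of 0.02. None was called against the pool. Over all genes 51.8% were below 0 and 0.21% were called in either direction. Cyp4f13 stood at 0.06 (SE 0.05). The electron donor Cyb5a, cytochrome b5, had the lowest mean, -0.30 (SE 0.06, adjusted p = 0.102 in limma), with -0.26, -0.18, -0.28 and -0.47 in mice 1 to 4. All mice were below the pool for Cyb5a, mouse 4 the furthest. Cyb5b averaged -0.01 and the reductase Cyb5r3 0.05.

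Of 34 listed genes of androgen action and steroid conversion 20 were measured, 11 of them below 0 with a median of -0.02. Over all genes 51.8% were below 0. The 1 called lower was Hsd17b11, a lipid droplet dehydrogenase, at -0.43 (SE 0.05, adjusted p = 0.0216 in limma), and none was called higher. Over all genes 0.145% were called lower and 0.0646% higher. This list too was chosen with earlier results of these data known, so nothing is read from the call. Hsd3b2, of the 3-beta-hydroxysteroid dehydrogenase family, averaged 0.30 (SE 0.17), with -0.08, 0.59, 0.11 and 0.58 in mice 1 to 4 that differed past the threshold (adjusted p = 0.0107 in the limma F test). Hsd17b2, which oxidises testosterone to a weaker androgen, stood at -0.16 (SE 0.02). Fkbp5, a chaperone partner induced by steroid hormones, stood at -0.28, 0.04, -0.23 and -0.15, with a mean of -0.16 (SE 0.07, adjusted p = 0.246 in limma). The glucuronidating enzymes Ugt2b38 and Ugt2b36 averaged -0.23 and -0.16, the chaperone Hsp90aa1 -0.16 and Srd5a3 0.14.

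Markers of the proximal tubule, where the 3 genes are expressed, showed mixed ratios. Of 20 listed markers 10 were measured, 3 of them below 0, beside 51.8% of all genes below 0. Their median was 0.05, with medians by mouse of 0.08, 0.01, 0.10 and -0.01. The endocytic receptors Lrp2 and Cubn averaged 0.02 (SE 0.03) and 0.07 (SE 0.03). The anion transporter Slc22a8 was called higher at 0.48 (SE 0.06, adjusted p = 0.0149 in limma), beside 0.0646% of all genes called higher. The marker lists were chosen with earlier results of these data known, so nothing is read from this call. The 3 below the pool were the organic anion transporter gene Slc17a3 at -0.37 (SE 0.12), Ttr at -0.32 (SE 0.07) and the fatty acid transporter gene Slc27a2 at -0.09 (SE 0.06), and none of them passed against the pool in limma. All 4 mice were below 0 for Slc17a3 and Ttr, which lay further down than Adh1, so the markers lay on both sides of the pool. Slc17a3 stood at -0.14, -0.19, -0.56 and -0.60 in mice 1 to 4. Its mice differed past the threshold (adjusted p = 0.019 in the limma F test), as did those of 2.54% of all genes. Ttr and Slc27a2 were named after their values were seen. Apart from the seminal vesicle and prostate markers given above, median ratios of the other marker lists lay between -0.12 for podocytes and 0.07 for red cells, with -0.10 for loop of Henle and distal tubule, -0.09 for smooth muscle and fibroblasts, -0.07 for endothelium, -0.06 for adipose tissue, 0.01 for adrenal cortex, 0.04 for leukocytes and 0.05 for collecting duct. Between 1 and 9 markers of each of these lists were measured, and their part in the ratios of the 3 genes was not tested.

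The genes whose ratios followed each of the 3 most closely over the arrays were sought among those with a value on all 16 arrays, after centring each orientation. For Odc1 these were Acacb, Gtf2i and Edc3 (Pearson r of 0.76, 0.75 and 0.74 over 14 arrays, of 2826 genes). For Adh1 they were Gstk1, Rara and Lmo4 (r of 0.86, 0.83 and 0.80 over 16 arrays, of 2825 genes). For Cyp4b1 they were Golga3, Slc7a7 and Ldha (r of 0.82, 0.81 and 0.80 over 16 arrays). By Spearman rank the leading genes for Odc1 were other ones, Msrb1, Gadd45b and Mboat7, while Rara for Adh1 and Slc7a7 and Ldha for Cyp4b1 were among the leading 3 by both measures. The arrays share mice, hybridisations and the pool, so these values describe this set of arrays.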

How the data were processed

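Total RNA was labelled indirectly with Cy3 or Cy5 and hybridised to spotted cDNA arrays, scanned on a GenePix 4000A and quantified with its software, per the labels. For each array the authors normalised background-subtracted mean intensities to a median ratio of 1, per the labels. The deposited table holds log2 ratios of 1 channel over the other. The log base was inferred: 46.5% of 720 distances between repeated values fell within 2e-06 of log2 of a simple fraction (terms up to 20), and 0.0% did so for natural or decimal logarithms. The labels do not explain the blank cells, and dim spots could not be filtered.

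Arrays were centred on their median and signed to knockout over wild type. A mouse's value is the mean of its orientation means (n = 4). A probe needed 1 value per mouse and orientation (10804 probes), and a gene is the mean of its single-gene probes. The annotation gave 1 gene symbol to 11723 of 20205 probes, more than 1 to 806 and none to 7676. Symbols were checked by gene identifier against RefSeq (11590 matched, none changed). Tests used lmFit and eBayes of limma 3.58.1 under R 4.3.3, at a Benjamini-Hochberg adjusted p of 0.05. The design assumed no block, and arrays of a mouse are technical replicates. On simulated data with the real blanks, the test between mice called 94 of 200 genes changed by 0.5 (log2) in 1 mouse and 187 of 200 changed by 1, with 7 and 6 calls among 5991 unchanged genes. The orientation test called 126 and 195 of 200, with 4 and 16 calls among unchanged genes. The simulated noise was independent for each gene and array, with no orientation difference that varied by mouse. How far these counts hold for the real arrays was not tested.

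The members and the 17 gene lists were chosen with earlier results of these data known. Genes were named by a rule: the 3 genes, every measured gene of the androgen, polyamine, alcohol dehydrogenase and CYP4 lists, the 8 largest ratios of the androgen action list, the leading markers of lists that bear on a result, and 3 genes most like each member. Svs5 falls under the marker rule. Alternatives left out each mouse, an orientation or an array pair, or changed centring, scaling, averaging, filtering and direction.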

Additional observations from a re-analysis of the deposited data

Results flagged for a closer look

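Among the 11 measured genes listed as raised by androgen, 3 had a mouse far from the other 3, judged by its gap to the nearest mouse relative to the range of all 4. Adh1 stood at -0.13 in mouse 3, against -0.32 to -0.33 in the other mice (gap over range 0.96, above the critical value of Dixon's test). Cyp4b1 stood at -0.07 in mouse 3, against -0.17 to -0.18 in the others (0.85). That gap was small beside the SD of 0.20 left between arrays of Cyp4b1 after a fit of mouse and orientation. The transporter gene Slc22a2 stood at -0.07 in mouse 1, against -0.15 to -0.16 in the others (0.91). Chance marks about 1 in 20 such groups, and the F test between mice did not pass for any of these genes (adjusted p = 0.447, 0.934 and 0.933 in limma). The share of all genes that this rule marks was not worked out, so nothing is read from the count of 3.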

How the results depend on the processing

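The mean log2 ratios of Odc1, Adh1 and Cyp4b1 moved by less than the SD between mice under 12 of 13, 12 of 15 and 14 of 15 alternatives. The exceptions were Adh1 with the knockout RNA in channel 1 only (-0.16) or channel 2 only (-0.39), and the opposite reading of the channels, under which the values are 0.55 (Odc1), 0.27 (Adh1) and 0.15 (Cyp4b1). With each mouse left out in turn they ranged from -0.64 to -0.47, from -0.32 to -0.26 and from -0.17 to -0.14. Odc1 could not be taken from arrays 1 and 2 alone or from probes with a value on all arrays, because of its blanks, and each gene had 1 probe, so no probe could be left out. The 13 genes past the threshold against the pool became 1 with the knockout RNA in channel 2 only, 4 on arrays 1 and 2, 8 on arrays 3 and 4, 8 with arrays scaled to one interquartile range, 40 among probes with a value on all arrays, between 1 and 6 with a mouse left out, and 467 with arrays as measurements and the mouse as a random block, where the correlation within mouse was put at 0.014 and arrays counted nearly as animals. Fewer genes or samples enter several of these, and otherwise the cause was not tested. The 157 genes that differed between mice became 97 without the most alike arrays of mice 3 and 4, an alternative chosen after seeing the data, and 41, 73, 41 and 135 without mouse 1, 2, 3 and 4. None of the 3 genes passed that test under any of these settings, and Odc1 came closest with scaled arrays (adjusted p = 0.0558 in limma, against a range up to 0.643). Of the 11 androgen-raised genes, 9 were below the pool without mouse 2. The number of arrays and the scatter between arrays limit what differences between mice could be seen.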
